A study of Mus musculus with 8 samples.

Results

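The Sez6 family of the mouse has 3 genes, Sez6, Sez6l and Sez6l2, and all 3 were found by name among the 24060 rows of the gene table and passed the filter on low counts. They were chosen because earlier results of these libraries showed them to differ in their naive to injury contrast, so their values in that contrast are given as a description, with no test. The libraries hold RNA of dissociated dorsal root ganglia (DRG, the clusters of sensory neuron cell bodies beside the spinal cord) at lumbar levels L4 to L6. They come from mice with a crush of 1 sciatic nerve, and the ganglia were taken 3 days later. There were 4 naive and 4 injury libraries, from 4 mice that each gave injured and naive ganglia. The strain, age and sex of the mice are not stated by the labels, and no group carries a transgene or a drug as far as the labels say. A whole ganglion mixes neurons with glia, immune and vascular cells, so fewer cells of a type and less RNA per cell cannot be told apart in these values.

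Sez6 proteins are membrane proteins of neurons that cross the membrane once and carry CUB and sushi (complement control) domains outside the cell and a short tail inside it. In the mouse brain Sez6 shapes dendrite branching and excitatory synapses, and the loss of the whole family impairs motor coordination. The protease BACE1 cuts Sez6 and Sez6l near the membrane and releases their outer part, while Sez6l2 has been described as a binding partner of an AMPA receptor subunit and of adducin, and as a transport receptor for cathepsin D.

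The 3 genes lie on different chromosomes of GRCm38. Sez6 (ENSMUSG00000000632.13) spans chr11:77930800-77979048 on the plus strand, Sez6l (ENSMUSG00000058153.15) spans chr5:112419151-112577185 on the minus strand and Sez6l2 (ENSMUSG00000030683.11) spans chr7:126950563-126970606 on the plus strand. Their coding sequences in GENCODE vM21 were 64.1% identical between Sez6 and Sez6l, 65.9% between Sez6 and Sez6l2 and 64.2% between Sez6l and Sez6l2, over the aligned bases. The last 90 coding bases before the stop codon are shown because they code the end of the inner tail, with a motif that all 3 paralogues hold. They were 74.4%, 72.2% and 75.6% identical in the same 3 pairs. Capitals mark the codons of an NPxY motif, a short sequence that adaptor proteins of membrane traffic can bind.
Sez6, transcript Sez6-201, chr11:77977782-77978055, plus strand, with an intron between: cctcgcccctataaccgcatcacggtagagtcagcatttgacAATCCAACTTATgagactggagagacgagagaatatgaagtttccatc
Sez6l, transcript Sez6l-201, chr5:112422012-112424685, minus strand, with an intron between: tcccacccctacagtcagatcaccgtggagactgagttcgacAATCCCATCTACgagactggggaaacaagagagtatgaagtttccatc
Sez6l2, transcript Sez6l2-202, chr7:126968194-126970079, plus strand, with an intron between: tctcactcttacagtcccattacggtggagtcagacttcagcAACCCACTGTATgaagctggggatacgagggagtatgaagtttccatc
Each held 1 such motif, and in all 3 it began 48 bases before the stop codon. A further annotated transcript, Sez6-202, is the one marked as principal for Sez6, as Sez6l-201 and Sez6l2-202 are for their genes. It differs from Sez6-201 after the motif, which begins 51 bases before its stop codon. The identities given for Sez6 rest on Sez6-201, which is not marked as principal. Gene counts add up the transcripts of a gene, so its isoforms were not separated.

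The reads start at the poly(A) tail, so a transcript gives reads from its 3′ end whatever its length, and the counts of different genes, scaled to a common library total (CPM), can be set side by side without a length correction. The annotated 3′ ends are shown because the kit primes at such ends; where the gene counts of Sez6 and Sez6l lie along the gene was not tested. Capitals mark AATAAA or ATTAAA, hexamers that direct cleavage and polyadenylation; each line holds the last 30 bases of a transcript.
Sez6, transcript Sez6-201, chr11:77979011-77979040, plus strand: tgttgtttccttATTAAAatggtgttttgg
Sez6l, transcript Sez6l-202, chr5:112419151-112419180, minus strand: tgctgctAATAAAacagttgtaaaagatgt
Sez6l2, shorter transcript Sez6l2-201, chr7:126970241-126970270, plus strand: agtaAATAAAccagcatcgtgccgcccaaa
Sez6l2, longer transcript Sez6l2-203, chr7:126970577-126970606, plus strand: gagcAATAAAcagaaagtcaccacttgtaa
Each of these ends carried a hexamer, ATTAAA in Sez6 and AATAAA in the others, starting 18 to 26 bases before the end. The last 100 bases of the longest protein-coding transcript had a GC content of 33.0% in Sez6, 26.0% in Sez6l and 45.0% in Sez6l2.

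Gene counts summed to between 16539644 and 28950551 per library. Pan-neuronal markers were present throughout: all 18 listed genes were measured, with a summed level of 24833 to 25810 CPM in naive and 27214 to 31880 CPM in injury libraries. The injury label was checked with Atf3, a transcription factor gene that axotomy induces, which went from 60.4 ± 7.88 to 329 ± 30.01 CPM (SD, n = 4 each). Genes whose last 100 bases are under 25% GC split the injury libraries: their median deviation from the group mean was -0.17 and -0.19 on the log2 scale in injury 2 and injury 3, against 0.17 and 0.20 in injury 1 and injury 4. Naive 2 had the lowest value of the naive libraries, -0.07.

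Sez6l showed the widest contrast between the groups. Its level in naive libraries 1 to 4 was 4.29, 4.39, 6.12 and 6.28 CPM, from 90, 92, 112 and 144 reads. In injury libraries 1 to 4 it was 67.4, 69.8, 74.9 and 67.5 CPM, from 1524, 1972, 1551 and 1101 reads. The lowest injury library stood 10.7 times above the highest naive one, and the groups did not overlap. The means were 5.27 ± 1.08 CPM in naive and 69.9 ± 3.52 CPM in injury (SD, n = 4 each), and the log2 fold change fitted over all genes was 3.73 (SE 0.15), or 13.2-fold. In order of fitted log2 fold change, Sez6l ranked 65 of the 13770 genes tested, and by mean level it went from rank 9999 in naive to rank 2910 in injury libraries.

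Sez6l2 was the most abundant paralogue in every library. It stood at 134, 177, 154 and 147 CPM in naive libraries 1 to 4, and at 208, 243, 274 and 203 CPM in injury libraries 1 to 4. The groups did not overlap, and the lowest injury library, injury 4, stood 1.14 times above the highest naive one, naive 2. On the log2 scale Sez6l2 deviated from its group mean by 0.08 and 0.25 in injury 2 and injury 3, against -0.14 and -0.18 in injury 1 and injury 4. In naive 2 it deviated by 0.22. These signs are opposite to those of the low-GC genes in the same libraries, and the cause was not tested. The means were 153 ± 18.1 and 232 ± 33.1 CPM (SD, n = 4 each), with a log2 fold change of 0.60 (SE 0.11), or 1.52-fold.

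Sez6 had nearly equal means. Its naive libraries 1 to 4 stood at 26.1, 32.1, 20.4 and 23.6 CPM and its injury libraries 1 to 4 at 23.8, 25.002, 31.1 and 22.6 CPM. The groups overlapped over most of their range, with naive 2 the highest and naive 3 the lowest of all 8 libraries. On the log2 scale Sez6 deviated from its group mean by -0.02 and 0.29 in injury 2 and injury 3. It deviated by -0.10 and -0.17 in injury 1 and injury 4, and by 0.35 in naive 2. The cause was not tested. The means were 25.5 ± 4.98 and 25.6 ± 3.78 CPM (SD, n = 4 each), with a log2 fold change of 0.00 (SE 0.15). The sign of the Sez6 value depended on the scaling: it was -0.07 with library size alone, -0.22 when libraries were scaled to the summed pan-neuronal markers and 0.01 with DESeq2's size factors.

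**Figure D1:**
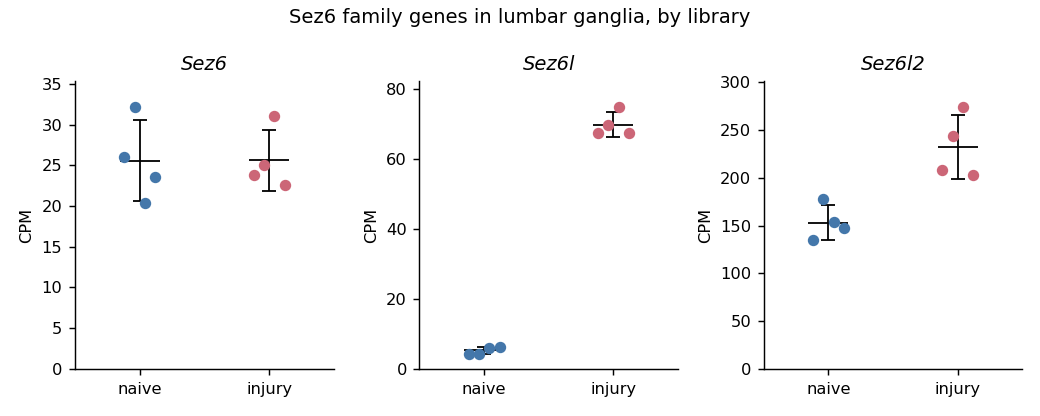
Level of Sez6, Sez6l and Sez6l2 in CPM (vertical axes, each from 0) in the 4 naive and 4 injury libraries, 1 point per library, with the mean and SD as bars. Sez6l goes from 4.29 to 6.28 CPM in naive to 67.4 to 74.9 CPM in injury libraries, Sez6l2 separates the groups by a small gap, and Sez6 overlaps.

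Of all 13770 genes tested, 10.1% were called higher and 7.76% lower in injury by edgeR's quasi-likelihood test at an adjusted p under 0.05, and 12.6% had every injury library above every naive one, as Sez6l and Sez6l2 did. The 3 genes were chosen on this contrast, so nothing is read from their number against these shares. When the summed pan-neuronal markers set the scale, which moved the median log2 fold change of all genes from -0.02 to -0.23, Sez6l had a log2 fold change of 3.51 and Sez6l2 of 0.38. The mean of that sum was 25377.1 CPM in naive and 29534.5 CPM in injury libraries. Its members were themselves called, 3 higher and 2 lower, with a median of -0.09. Stmn2 went from 2440 to 4483 CPM and Tubb3 from 4501 to 6578 CPM, so the sum does not follow neuron content alone. With naive 2, injury 2 and injury 3 left out, the values were 3.59 for Sez6l, 0.50 for Sez6l2 and -0.01 for Sez6.

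Ratios between paralogues within a library need no scaling between libraries, but a library effect that differs between genes does not cancel in them. Sez6 reads outnumbered Sez6l reads in each naive library, by 3.33 to 7.32 times, while in each injury library the order was the opposite, with 0.335 to 0.415 Sez6 reads per Sez6l read. The mean log2 ratio of Sez6 to Sez6l went from 2.27 ± 0.54 to -1.46 ± 0.13 (SD, n = 4 each), a shift of -3.73. The log2 ratio of Sez6l to Sez6l2 went from -4.87 ± 0.35 to -1.72 ± 0.14, a shift of 3.15, and that of Sez6 to Sez6l2 from -2.60 ± 0.24 to -3.18 ± 0.07, a shift of -0.58. In each of the 3 ratios the groups did not overlap. The Sez6 to Sez6l2 ratio came closest, with -2.91 in naive 3 and -3.13 in injury 1. The 3 genes were chosen on this contrast and each log2 ratio follows from the other 2, so nothing is read from the number of ratios. The spread of all 3 ratios was wider among naive than among injury libraries. The log2 ratio of Sez6l to Sez6l2 was -1.80 and -1.87 in injury 2 and injury 3, against -1.63 and -1.59 in injury 1 and injury 4. Naive 2 had the lowest naive value, -5.33. The low-GC genes split these libraries in the same way, and the part of that split in the ratios and read shares was not tested.

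**Figure D2:**
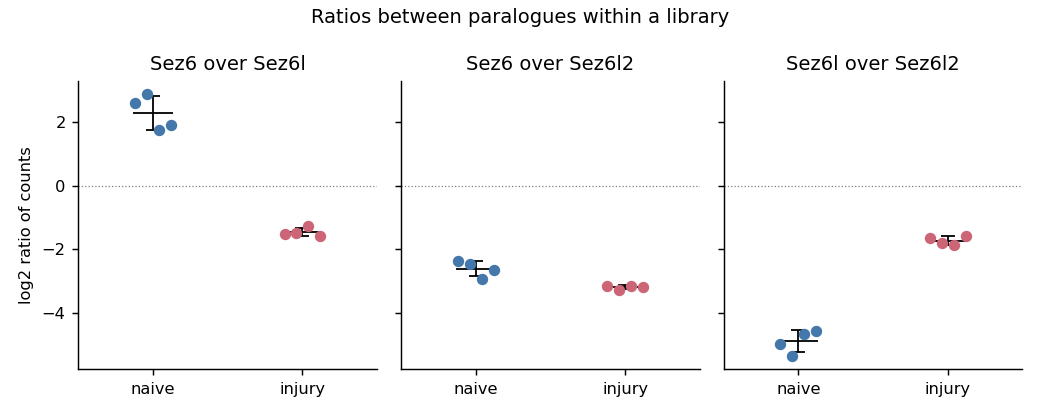
Log2 ratio of the counts of 2 paralogues within each library (vertical axis, shared), 1 panel per pair and 1 point per library, with the mean and SD as bars; the dotted line marks equal counts. The ratio of Sez6 to Sez6l crosses that line between the groups, from 2.27 to -1.46.

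The make-up of the family's reads changed accordingly. Sez6l took 2.60%, 2.05%, 3.40% and 3.55% of the summed reads of the 3 genes in naive libraries 1 to 4, and 22.5%, 20.7%, 19.7% and 23.0% in injury libraries 1 to 4. The smallest of these shares, in naive 2, has a 95% Wilson interval of 1.68% to 2.51%, which covers counting error only. The mean share of Sez6l went from 2.90% ± 0.70 to 21.5% ± 1.55, that of Sez6 from 13.9% ± 1.99 to 7.81% ± 0.34, and that of Sez6l2 from 83.2% ± 1.53 to 70.7% ± 1.52 (SD, n = 4 each). Sez6 thus held a smaller share of a larger sum: the summed level of the family went from 184 ± 21.1 to 328 ± 40.1 CPM, a ratio of 1.78. Of the difference between these means, Sez6l2 made up 55.0%, Sez6l 45.0% and Sez6 0.055%.

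**Figure D3:**
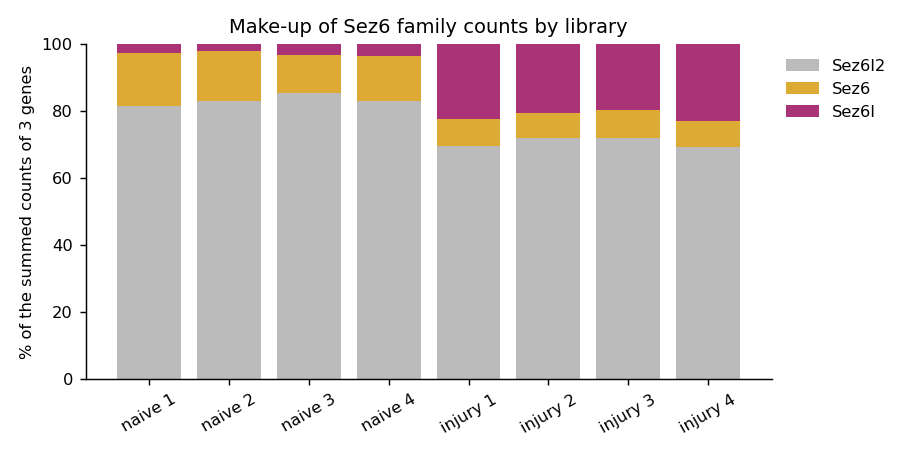
Percent of the summed counts of the 3 genes held by Sez6l2, Sez6 and Sez6l in each library (stacked bars, 1 per library). Sez6l takes 2.05% to 3.55% in naive and 19.7% to 23.0% in injury libraries.

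Sez6l2 was the paralogue whose poly(A) sites could be followed. The deposited table of genomic windows lists 2 windows within the gene and outside repeats. The proximal window (chr7:126970220-126970245) lies near the end of the shorter transcript shown above and the distal one (chr7:126970567-126970592) near the end of the longer one, 347 bases further on. Together they held 79.3% to 90.1% of the Sez6l2 reads of a library. The proximal window took 20.2%, 15.8%, 19.6% and 24.9% of the reads at both windows in naive libraries 1 to 4, and 19.4%, 20.5%, 19.2% and 19.5% in injury libraries 1 to 4. The means were 20.2% ± 3.72 and 19.7% ± 0.56 (SD, n = 4 each), a difference smaller than the spread among naive libraries. Naive 4 was the highest and naive 2 the lowest, with all injury libraries between them. A further window starting 1077 bases past the annotated end held 4.93% of the reads at the 3 windows and was left out of these shares.

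**Figure D4:**
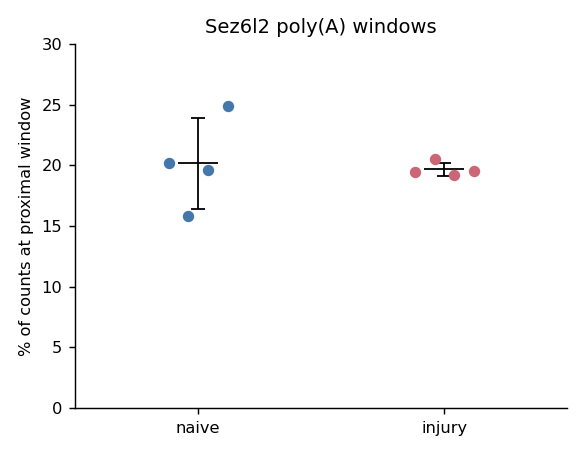
Percent of the reads at the proximal and distal Sez6l2 windows that lay at the proximal one (vertical axis, from 0) in each library, with the mean and SD as bars. The groups overlap, at 15.8% to 24.9% in naive and 19.2% to 20.5% in injury libraries.

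Sez6 and Sez6l gave no such value. The window at the end of Sez6 is listed at 0 in all 8 libraries, although the gene had 369 to 706 reads per library in the gene table. All 13317 windows of chromosome 11 that start before 100 Mb are likewise listed at 0, while 92.5% of the 4380 windows from there on hold counts, so this 0 says nothing about the gene. On the strand of Sez6l no window outside repeats is listed, and the 5 windows in repeat elements held 5 reads over the naive and 66 over the injury libraries. The 5 repeat windows on the opposite strand of the same gene held 29 and 103 reads. Reads from repeats can map to several places, and their part in the gene count was not tested.

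Of the Sez6 family, the RefSeq promoter table gave a sequence for Sez6l. It is shown because Sez6l differed most between the groups. The sequence runs from 250 bases before to 50 after the RefSeq start, at chr5:112577149-112577448 of GRCm38.p6 on the minus strand. Capitals mark GGGCGG, the GC box bound by Sp and Kruppel-like factors, which appears here as its reverse complement.
Sez6l promoter: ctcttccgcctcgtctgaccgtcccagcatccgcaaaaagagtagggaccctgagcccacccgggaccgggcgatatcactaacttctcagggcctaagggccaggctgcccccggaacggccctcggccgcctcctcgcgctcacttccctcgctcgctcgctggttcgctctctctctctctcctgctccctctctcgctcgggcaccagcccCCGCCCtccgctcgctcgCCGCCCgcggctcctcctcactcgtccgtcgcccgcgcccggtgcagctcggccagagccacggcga
The GC box had 2 matches, and 35.7% of the 32851 promoters in the table hold at least 1. On either strand there was no match to TGANTCA, the AP-1 motif (in 7.81% of promoters), to TGACGTCA, the cyclic AMP response element bound by ATF and CREB factors (1.79%), to the shorter TGACGT, which that element contains (7.51%), or to the E-box CACGTG (7.15%). The sequence was 70.7% GC, above 91.4% of the promoters, and held 35 CpG dinucleotides against a median of 7.

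Genes for the proteases that cut such membrane proteins and for lysosomal cathepsins changed in both directions. Of 12 measured, 2 rose and 2 fell (16.7% each, against 10.1% and 7.76% of all genes), and the median was 0.12 on the log2 scale, against -0.02 for all genes. With library size alone 1 rose and 3 fell, where 1100 of the 13770 genes tested rose and 1581 fell. With scaling to the pan-neuronal markers 1 rose and 4 fell, where 750 of the 13770 genes rose and 2701 fell. The risers were both cathepsin genes and the genes that fell were both for secretases. Bace1 stood at 119 to 132 CPM in naive and 102 to 106 CPM in injury libraries, with no overlap, and fell by 0.26 on the log2 scale (SE 0.07, edgeR adjusted p = 0.0294). Of all genes tested, 10.8% had every injury library below every naive one. The call of Bace1 was lost without naive 1, naive 2, naive 3, injury 1 or injury 2, left out singly (adjusted p up to 0.0800). Ctsd, which codes cathepsin D, rose from 852 ± 27.5 to 1250.2 ± 140 CPM (SD, n = 4 each; log2 fold change 0.55, SE 0.09, adjusted p = 0.000770). Ctsb, another lysosomal protease gene, rose by 0.27 on the log2 scale, a call lost with library size alone (adjusted p = 0.0738), with scaling to the pan-neuronal markers (0.598) and without naive 1, naive 3, naive 4 or injury 2 (up to 0.0564). Psen2, a catalytic subunit gene of gamma-secretase, fell by 0.45 (SE 0.08).

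Among 18 measured genes for other reported BACE1 substrates, 3 fell (16.7%, against 7.76% of all genes) and 2 rose (11.1%, against 10.1%), with a median of -0.16 on the log2 scale; a further pair on the list, Kcne1 and Kcne2, did not pass the filter. With library size alone 5 fell and 1 rose, where 1581 of the 13770 genes tested fell and 1100 rose. With scaling to the pan-neuronal markers 6 fell and 1 rose, where 2701 of the 13770 genes fell and 750 rose. Chl1, a cell adhesion molecule of the L1 family that acts in axon growth, went from 182 to 258 CPM in naive to 687 to 909 CPM in injury libraries (log2 fold change 1.87, SE 0.12, edgeR adjusted p = 5.46e-07). Cntn2, a contactin of axons, rose by 0.30 on the log2 scale, a call lost with library size alone (adjusted p = 0.0736), with scaling to the pan-neuronal markers (0.472) and without naive 3, naive 4 or injury 2 (up to 0.102). Scn2b, a beta subunit gene of voltage-gated sodium channels, fell by 0.64, Aplp2, an amyloid precursor-like gene, by 0.44 and the sialyltransferase gene St6gal1 by 0.47. The call of St6gal1 was lost without naive 2 or naive 3 (adjusted p up to 0.0635). With naive 2, injury 2 and injury 3 left out together, the calls of Bace1, Cntn2 and St6gal1 were lost as well (adjusted p = 0.0722, 0.0924 and 0.0559). L1cam (log2 fold change -0.11) and App (-0.23) did not pass the test.

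Of the 13 genes for reported partners of the family, 3 fell (23.1%, against 7.76% of all genes) and 2 rose (15.4%, against 10.1%), with a median of -0.05 on the log2 scale. With scaling to the pan-neuronal markers 5 fell and 2 rose, where 2701 of the 13770 genes tested fell and 750 rose. Prss12, which codes the secreted neuronal protease motopsin, stood at 11.3 to 15.3 CPM in naive and 50.7 to 61.4 CPM in injury libraries, with no overlap (log2 fold change 2.04, SE 0.13, edgeR adjusted p = 3.74e-07). Every injury library stood above every naive one in 12.6% of all genes tested. The adducin gene Add2, for a protein of the membrane skeleton, rose by 0.43 (SE 0.07). Among glutamate receptor subunits the kainate receptor genes Grik1 and Grik4 fell by 0.83 and 0.32 on the log2 scale and the AMPA receptor gene Gria4 by 0.48. The call of Grik4 was lost without each naive library in turn and without injury 1 or injury 4, with adjusted p-values up to 0.0702, and that of Gria4 without naive 4 (adjusted p = 0.0588). Grik2 and Grik3, for the subunits reported to bind Sez6, had low levels of 2.80 and 3.33 CPM in naive libraries and did not pass the test.

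**Figure D5:**
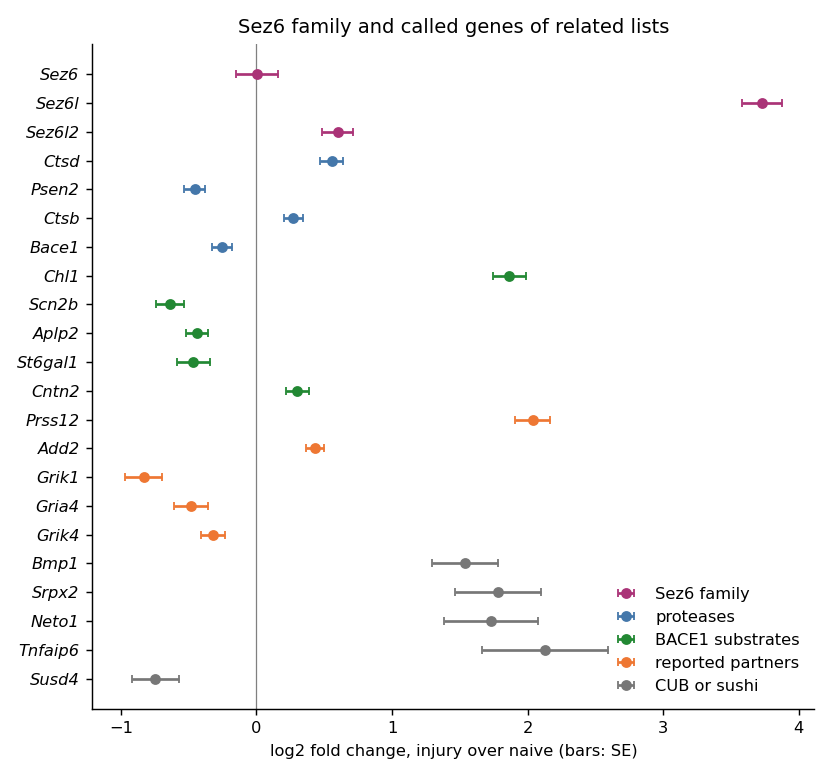
Log2 fold change of injury over naive (horizontal axis, bars SE of the fit) for the 3 Sez6 family genes and for the called genes of 4 related lists, coloured by list. Sez6l lies at 3.73, above the other genes drawn, the next of which are Tnfaip6 at 2.13 and Prss12 at 2.04.

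Other genes for proteins with CUB or sushi domains mostly did not pass the test: of 37 listed, 28 were measured, of which 4 rose (14.3%, against 10.1% of all genes) and 1 fell (3.57%, against 7.76%), with a median of -0.03 on the log2 scale. With scaling to the pan-neuronal markers 4 rose and 5 fell, where 750 of the 13770 genes tested rose and 2701 fell. The risers were Bmp1, a procollagen protease gene, Srpx2, Neto1, for an auxiliary subunit of kainate and NMDA receptors, and Tnfaip6, with log2 fold changes of 1.54, 1.78, 1.73 and 2.13. Their naive levels were low, from 1.54 to 3.43 CPM. Without naive 4, where Tnfaip6 stood at 3.58 CPM against 0.43 to 1.09 CPM in the other naive libraries, its log2 fold change was 2.99. Susd4, for a sushi-domain regulator of complement, fell by 0.75.

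Sez6 proteins have been described as regulators of complement, so complement genes and cell markers were set beside them. Of 17 complement genes measured, 5 rose (C1qa, C4b, Cd59a, C1qc and C1qb) and 2 fell (Serping1 and Cd55), shares of 29.4% and 11.8% against 10.1% and 7.76% of all genes, with a median of 0.26 on the log2 scale. The call of C1qb was lost when naive 2, injury 2 and injury 3 were left out together (adjusted p = 0.137), and that of Serping1 without naive 2, naive 3, injury 1, injury 2 or injury 4, left out singly (up to 0.102). Cd55, for a membrane inhibitor of complement, had an adjusted p of 0.0468, and its call was lost with DESeq2 (0.0887) and without each naive library in turn, injury 2 or injury 3 (up to 0.103). It stood at 118 and 105 CPM in injury 1 and injury 4 against 25.8 and 23.0 CPM in injury 2 and injury 3, the same split as in the low-GC genes; without naive 2, injury 2 and injury 3 its log2 fold change was -0.80 in place of -1.40. The 3 C1q genes are also in the macrophage list. Of its 11 measured genes 7 rose (63.6%, against 10.1% of all genes), and 4 without naive 2, injury 2 and injury 3. The call of Csf1r was lost without naive 1, naive 2, naive 3, injury 2 or injury 3, left out singly (adjusted p up to 0.0806), and that of Mrc1 without naive 1, naive 2, naive 3, injury 2, injury 3 or injury 4 (up to 0.0976). The summed level of the list was 13.3 to 34.5 CPM in naive and 43.0 to 64.3 CPM in injury libraries. Its other members Lyz2, Ptprc, Tyrobp and Cd68 did not pass the test (log2 fold changes -0.80, -0.89, -0.43 and 0.32), and Adgre1 was not measured. Of 11 glial markers 2 rose (18.2%, against 10.1% of all genes), Glul (0.63) and Mal (0.47). The call of Mal was lost with scaling to the pan-neuronal markers (adjusted p = 0.173) and without naive 2, naive 3, naive 4, injury 1 or injury 3 (up to 0.0848). Of 13 fibroblast and vascular markers 0 were called by edgeR, with 0 at an unadjusted p under 0.05 and 0 called by DESeq2 or limma-voom, and 1 was called lower with scaling to the pan-neuronal markers. Of the 18 pan-neuronal markers 3 rose (16.7%, against 10.1% of all genes), Stmn2 (0.88), Tubb3 (0.55) and Elavl3 (0.42). A further 2 fell (11.1%, against 7.76%), Pou4f1 (-0.38) and Snap25 (-0.69), and the median was -0.09 against -0.02 for all genes. With upper-quartile factors, DESeq2 or limma-voom 4 of them fell, with library size alone 6, and with their own sum as the scale 9, where Elavl3 was no longer called (adjusted p = 0.131). Of the 13770 genes tested, 1581 fell with library size alone and 2701 with the sum of these markers as the scale. The part of changes in cell make-up in the Sez6 family values was not tested.

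Protein-coding genes within 50 kb of each member were looked at after the member values were known. Asphd1, 981 bases from Sez6l2 and on the other strand, had a log2 fold change of 0.83 (SE 0.11, edgeR adjusted p = 0.000190), while Asphd2, the neighbour of Sez6l, had one of -0.43 (SE 0.10, adjusted p = 0.0104). Around Sez6l2, 3 of 7 tested neighbours were called, Asphd1, Mvp (1.13) and Pagr1a (0.47), all higher, where 10.1% of all genes were called higher and 17.8% either way. The neighbours not called had log2 fold changes of -0.54 (Prrt2), -0.39 (Kctd13), -0.06 (Cdipt) and 0.05 (Tmem219). The call of Pagr1a was lost with library size alone (adjusted p = 0.0717), with scaling to the pan-neuronal markers (0.163), without each naive library in turn and without injury 2 or injury 3 (up to 0.100). Around Sez6l 1 of 2 was called, and around Sez6 0 of 2 by edgeR, with 0 at an unadjusted p under 0.05.

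The genes most like each member were sought by the root mean square difference of log2 CPM, centred on the naive mean, over the 8 libraries and among 9045 genes with a mean log2 CPM of at least 3. For Sez6l they were Kif22, Tubb6, Sema6a and Sox9, with differences of 0.31 to 0.37 and log2 fold changes of 3.53 to 4.09. Kif22 went from 12.1 ± 2.23 to 188 ± 43.5 CPM and Sema6a, a transmembrane semaphorin gene, from 14.9 ± 2.74 to 172 ± 12.1 CPM (SD, n = 4 each). For Sez6l2 they were Wars, Prdx6, Ppp1r18 and Cltb, with differences of 0.06 to 0.07 and log2 fold changes of 0.53 to 0.68. For Sez6 they were Vopp1, Stk11ip, Ifit1 and Cpsf3, with differences of 0.08 to 0.10 and log2 fold changes of -0.06 to 0.05. These genes were picked for their likeness in the same 8 libraries and share depth and scaling with the members.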

How the data were processed

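RNA of 4 naive and 4 injury libraries was prepared with QuantSeq 3′ mRNA-seq REV, per the labels' protocols, a kit whose reads keep the strand. The submitters' processing notes name bcl2fastq (2.17), STAR, HTSeq and GRCm38/mm10; for STAR, HTSeq and the strand setting of the counting, nothing further was at hand. The authors deposited unnormalized read counts, per gene in 24060 rows and per genomic window. Date strings replace the gene symbol in 27 rows, with 0.133% to 0.164% of the reads of a library, and these were kept in the library sizes. The choice of windows is not explained by the labels. Coordinates of windows are as deposited.

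Counts were fitted with edgeR 4.0.16 in R 4.3.3 (TMM, filterByExpr, quasi-likelihood test, group as the only term, Benjamini-Hochberg over 13770 genes, threshold 0.05). CPM are scaled by TMM, and the SE is the size of the log2 fold change divided by the square root of F. Members and lists were chosen with earlier results of these data known. The genes named are the members, Atf3, Bace1 and Prss12, up to 6 called genes of each list by p, and 4 genes most like each member; other genes were chosen after their values were seen. Lists are described by counts, with no set test. On simulated counts (13570 genes tested, 200 changed), the test recovered 99.0% of 4-fold and 76.0% of 2-fold changes, and 3.85% of its calls were false. Changes smaller than 2-fold, as in many of the called list genes, were not simulated. Sequences come from GENCODE vM21 and, for the promoter, from RefSeq on GRCm38.p6.

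The design text says that each of the 4 mice gave injured and naive ganglia, but no label ties a replicate number to a mouse, so the groups were compared unpaired. Nothing says more on how replicates were made, so p-values measure the spread between these libraries. DESeq2 1.42.0, limma 3.58.1, other scalings, no filter, the replicate block and leaving out libraries were tried as alternatives.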

Additional observations from a re-analysis of the deposited data

How the results depend on the processing

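The log2 fold changes of Sez6, Sez6l and Sez6l2 and their differences moved by less than the replicate SD under upper-quartile factors, library size alone, no filter, limma-voom, DESeq2 and the replicate block. Same-numbered libraries correlated at 0.18, 0.35, -0.06 and 0.28 in their deviations from the group means, and 3 of 4 naive libraries matched their own number best. Naive 2 also correlated at 0.27 with injury 3, and naive 1 at 0.15 with injury 4. Whether the replicate numbers stand for mice cannot be told from these values, and no label says so. The p-values printed come from unpaired fits except where the block is named. With the replicate number as a block the values were 0.01, 3.74 and 0.60, with 1393 genes called higher and 1240 lower; Bace1 was not called (adjusted p = 0.0550) and 4 pan-neuronal markers fell. For the shares of family reads and the Sez6l2 window share the block leaves the mean difference as it is by construction. Scaling to the summed pan-neuronal markers moved Sez6l to 3.51 and Sez6l2 to 0.38, and brought the genes called higher to 750 and lower to 2701, against 1387 and 1068. Leaving out single libraries gave 1049 to 1356 genes higher and 689 to 1082 lower, the lowest of both without naive replicate 3. It gave log2 fold changes of -0.10 to 0.13 for Sez6, 3.64 to 3.82 for Sez6l and 0.51 to 0.68 for Sez6l2, and -1.91 to 1.11 percentage points for the Sez6l2 proximal window, whose sign is therefore not fixed. The cause of these shifts was not tested. Leaving out naive 2, injury 2 and injury 3 together and counting the downstream Sez6l2 window were chosen after seeing the data. The 90 to 144 reads of Sez6l per naive library limit the precision of its fold change.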
